A study of Homo sapiens with 11 samples.

Results

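TYR encodes tyrosinase, the enzyme of the rate-limiting step of melanin synthesis, and DCT encodes dopachrome tautomerase, which acts later in the same pathway. The binding of 4 proteins and 1 histone mark was followed here at these 2 loci, out of 20033 protein-coding genes of the annotation. The loci were the RefSeq gene bodies with 100 kb on either side, and every narrow peak that touched them was taken. TYR (gene ID 7299) lies on the plus strand at chr11:89177875-89295759 and its window spans 317885 bp. DCT (gene ID 1638) lies on the minus strand at chr13:94436811-94549406 and its window spans 312596 bp. Coordinates are on GRCh38, counted from 1. Together the windows held 243 peaks, 165 in the DMSO libraries and 78 in the FHT-1015 libraries.

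The cells were 92-1, an established line from a uveal melanoma, a tumour of the pigment cells of the eye. Treatment lasted 4 h, with the solvent DMSO alone or with FHT-1015, a compound that blocks SMARCA4 (BRG1) and SMARCA2, the ATPases that drive BAF chromatin remodelling. Chromatin was immunoprecipitated for SMARCA4, MITF, TFAP2A (written AP-2 in the sample titles), SOX10 and histone H3 acetylated at lysine 27 (H3K27ac). Each antibody had 1 library per condition, so there were no replicates, no test was made, and a difference between conditions cannot be told apart from a difference between libraries. The comparison asks which regulatory elements of pigment genes keep their factors when the remodeller is blocked.

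BAF complexes slide and evict nucleosomes and so open DNA to transcription factors. MITF, a basic helix-loop-helix factor that binds E-box sequences, and SOX10, an HMG-box factor, are regulators of the pigment cell lineage and act at the genes of melanin synthesis. TFAP2A acts in the neural crest, from which melanocytes arise. H3K27ac is found at active promoters and enhancers. An H3K27ac peak lay within 1 kb of a gene boundary in DMSO at 7 of 10 melanocyte markers, TYR among them. The same held for 3 of 5 markers of the retinal pigment epithelium, and for 0 of 4 epithelial, 0 of 4 blood and 0 of 3 endothelial markers. The share of all genes with such a peak was not counted, so these counts are a description only. DCT was among the 3 melanocyte markers without such a peak. Inside the annotated gene its H3K27ac was highest upstream of an inner start and next highest at that start, as described below.

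The promoter sequences are shown because MITF peaked over both of them. RefSeq lists 1 TYR start in the table used here, at position 89177875 of chromosome 11. For DCT it lists an outer start at position 94549406 of chromosome 13 and an inner one at position 94479682. No peak of any antibody in either condition lay over the outer DCT promoter, whereas 5 DMSO peaks and 3 FHT-1015 peaks lay over the inner one. Distances at DCT are therefore given from the inner start. The TYR promoter was covered by 5 DMSO and 5 FHT-1015 peaks. Each sequence below holds the 250 bases before a start and the 50 bases after it (RefSeq, GRCh38.p14), written 5′ to 3′ along the gene. TYR is chr11:89177625-89177924 on the plus strand, DCT is chr13:94479633-94479932 on the minus strand, and GPR180, a neighbour of DCT whose promoter kept all its peaks, is chr13:94601607-94601906 on the plus strand. Capitals mark matches to the motifs named after them.
TYR: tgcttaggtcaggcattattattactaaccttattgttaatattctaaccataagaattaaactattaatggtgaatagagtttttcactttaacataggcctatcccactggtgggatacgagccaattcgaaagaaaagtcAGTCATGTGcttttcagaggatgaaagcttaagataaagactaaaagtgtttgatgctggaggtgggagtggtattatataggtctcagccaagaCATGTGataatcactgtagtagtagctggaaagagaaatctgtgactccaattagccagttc
DCT, inner start: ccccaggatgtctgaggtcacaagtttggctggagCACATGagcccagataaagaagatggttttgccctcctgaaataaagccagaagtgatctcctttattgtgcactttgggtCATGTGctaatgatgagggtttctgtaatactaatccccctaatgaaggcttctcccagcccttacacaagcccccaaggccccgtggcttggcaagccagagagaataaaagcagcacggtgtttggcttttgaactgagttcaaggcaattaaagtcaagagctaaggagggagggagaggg
GPR180: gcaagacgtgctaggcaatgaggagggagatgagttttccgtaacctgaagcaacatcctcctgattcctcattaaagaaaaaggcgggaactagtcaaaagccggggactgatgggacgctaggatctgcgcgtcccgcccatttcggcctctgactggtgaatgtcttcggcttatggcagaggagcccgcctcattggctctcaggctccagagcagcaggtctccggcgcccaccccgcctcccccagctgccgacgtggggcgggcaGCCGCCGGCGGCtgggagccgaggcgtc
The motifs searched on both strands were the E-boxes CATGTG and CACGTG, the M-box AGTCATGTG, the SOX motifs ACAAAG and ACAATG, and the AP-2 motif GCCNNNGGC. The TYR promoter held the M-box, which contains a CATGTG, 107 bp before the start, and a second CATGTG 12 bp before it. The M-box is found in 0.231% of 35116 promoters of this length and CATGTG in 11.1%. The inner DCT promoter held CATGTG at 215 and 134 bp before the start, the first on the opposite strand (printed as CACATG). The MITF summit lay 28 bp from the nearer CATGTG in DMSO at both genes. In FHT-1015 it lay 18 bp from it at TYR and 19 bp at DCT. CACGTG, present in 7.26% of promoters, the SOX motifs, in 16.1% and 10.8%, and the AP-2 motif, in 23.2%, were not among the letters of the TYR or inner DCT promoters. The GPR180 promoter held 2 overlapping AP-2 motifs.

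At TYR, under the overlap rule given below, SMARCA4 retained the largest share of its peaks and SOX10 the smallest. The peak identifiers of the SOX10 libraries carry prefixes that differ from each other and from those of the other antibodies, with no stated meaning, and their part in the SOX10 results was not tested. Retained means here that a DMSO peak overlapped, by 1 bp or more, a peak of its own antibody in FHT-1015, and lost means that it did not. The shares carry 95% Wilson intervals, which cover counting error only. SOX10 had 12 DMSO peaks and 2 FHT-1015 peaks, and 2 of the 12 were retained (16.7%, 4.70 to 44.8%). Over the whole SOX10 list 81.7% of DMSO peaks were lost, so the loss at TYR was near that of the genome. MITF had 20 peaks in DMSO, and 13 after treatment. Of the 20, 5 were retained (25%, 11.2 to 46.9%), against a loss of 63.8% over the whole list. TFAP2A had 15 and 12 peaks with 8 retained (53.3%, 30.1 to 75.2%), beside a loss of 45.1% over its list. SMARCA4 had 17 and 12 peaks with 13 retained (76.5%, 52.7 to 90.4%), where the whole list lost 48%. H3K27ac had 5 and 4 peaks with 3 retained (60%, 23.1 to 88.2%), against 40.7% lost over the list. For SMARCA4 alone the interval at TYR excluded the share retained over the whole list, 52.0%, and it lay above that share. The median share over 16141 genes with at least 5 SMARCA4 peaks in DMSO was 60%, inside the interval, and 85.8% of these genes retained a smaller share than TYR. Among SMARCA4 peaks of −log10 p of at least 5 in both conditions, 4 of 8 were retained at TYR (50%), and the high share was not found there. With summits within 200 bp, 9 of 17 were retained (52.9%, 31.0 to 73.8%), beside 53.3% for TFAP2A. With 50% of the DMSO peak covered it was 11 of 17 (64.7%, 41.3 to 82.7%). Both of these SMARCA4 intervals included 52.0%, the whole-list share of the 1 bp rule.

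At DCT, TFAP2A retained a smaller share of its peaks than over its whole list, and SOX10 retained the smallest share of the 5 antibodies. TFAP2A went from 30 peaks to 7, and 6 of the 30 were retained (20.0%, 9.51 to 37.3%). This interval lay below the 54.9% retained over the whole TFAP2A list. Among 18245 genes with at least 5 TFAP2A peaks in DMSO, 200 (1.10%) retained a smaller share than DCT, whereas 29.0% retained a smaller share than TYR. Windows of neighbouring genes overlap, so these genes are not independent. SOX10 went from 22 peaks to 3 at DCT, with 2 retained (9.09%, 2.53 to 27.8%), and 15.5% of genes with at least 5 SOX10 peaks retained less. H3K27ac went from 15 peaks to 7 with 7 retained (46.7%, 24.8 to 69.9%). SMARCA4 went from 20 to 12 with 10 retained (50%, 29.9 to 70.1%), and MITF from 9 to 6 with 3 retained (33.3%, 12.1 to 64.6%). The intervals of H3K27ac, SMARCA4, MITF and SOX10 at DCT included the share of the whole list.

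**Figure D1:**
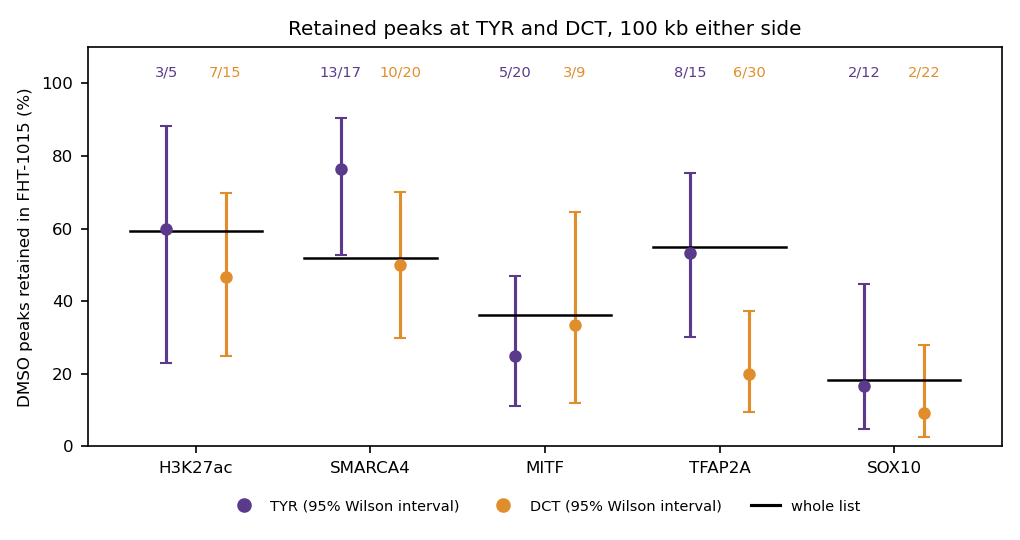
Share of DMSO peaks retained in FHT-1015 (percent, y axis) for each antibody at TYR (purple) and DCT (orange), with 95% Wilson intervals and the counts above; black lines give the share over the whole list. The TFAP2A interval at DCT, 9.51 to 37.3%, lies under its line, and the SMARCA4 interval at TYR, 52.7 to 90.4%, lies just above its line.

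The sequence covered by peaks followed the counts except for SMARCA4 at TYR, where it was 6.53 kb in DMSO and 6.59 kb in FHT-1015. SOX10 covered 6.32 kb at TYR in DMSO and 0.585 kb in FHT-1015, and 9.41 and 1.45 kb at DCT. TFAP2A covered 5.46 and 3.41 kb at TYR and 9.97 and 3.02 kb at DCT. MITF covered 7.95 and 4.54 kb at TYR and 4.53 and 2.30 kb at DCT. H3K27ac covered 15.8 and 11.3 kb at TYR and 11.02 and 5.22 kb at DCT. H3K27ac peaks were wider at TYR, with a median of 2558 bp in DMSO against 323 bp at DCT. The median width of SOX10 peaks in DMSO was 457.5 bp at TYR and 296.5 bp at DCT. New peaks, present in FHT-1015 only, were most frequent for MITF, at 8 of 13 at TYR and 3 of 6 at DCT, and 64.8% over the whole MITF list. These 11 MITF peaks had at most 10 reads at the summit, where the median of the FHT-1015 list was 8. TFAP2A had 4 new peaks at TYR and 1 at DCT (34.4% over its list), SMARCA4 had 2 and 3 (45.4%), SOX10 had 0 and 1 (38.5%), and H3K27ac had 0 at both (19.8%).

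Many of the lost peaks were weak, so peaks with a deposited −log10 p of at least 10 in DMSO were also followed. SOX10 had 7 such peaks at TYR and 2 were retained, and it had 10 at DCT and 2 were retained, where 67% of such peaks were lost over the list. No SOX10 peak of this strength was found at either locus in FHT-1015. The strongest SOX10 peak there had a −log10 p of 7.29 and was in the top 23.6% of the FHT-1015 list. Most peaks of that list were thus under 10 as well, and the share that reached 10 was not counted. TFAP2A retained 5 of 6 at TYR and 3 of 10 at DCT (28.5% lost over the list). MITF retained 4 of 6 at TYR and 3 of 7 at DCT (38.3% lost). SMARCA4 retained 4 of 5 at TYR and 2 of 2 at DCT (14.8% lost), and H3K27ac 3 of 3 and 4 of 5 (12.4% lost).

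Heights are given next as summit coverage in multiples of the library's own mean coverage, which corrects for depth but not for the yield of an immunoprecipitation. Reads at the summit were recovered from the deposited fold and p. The relative depth of FHT-1015 over DMSO ranged from 0.854 for MITF to 1.15 for SOX10. Elements were the merged peaks of the 4 non-histone antibodies in both conditions, with H3K27ac scored over them.

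The TYR start kept every factor, at lower height. The element around it, chr11:89176860-89178801, held all 4 factors. MITF reached 105 times the library mean in DMSO (147 reads, among the top 0.90% of its list) and 50.2 times in FHT-1015 (62 reads). TFAP2A went from 38.9 to 22.3 times and SOX10 from 28.5 to 9.66 times. SMARCA4 went from 15.7 to 13.6 times, a ratio of 0.863 whose 95% counting interval, 0.483 to 1.53, included 1. The ratios of MITF (0.476, 0.348 to 0.645), TFAP2A (0.574, 0.370 to 0.878) and SOX10 (0.339, 0.195 to 0.570) had intervals below 1. The median ratio over all retained DMSO peaks of −log10 p of at least 10 was 0.601 for MITF, 0.707 for TFAP2A, 0.510 for SOX10 and 0.958 for SMARCA4. Each of the 4 intervals at the TYR start included the median of its antibody. A lower ratio than that of TYR was found in 35.8% of such MITF peaks and in 16.7% of such SOX10 peaks.

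A second element that kept all 4 factors lay upstream, at chr11:89175744-89176511, with its MITF summit 1.87 kb before the start. In DMSO the summits of the 4 factors fell within 15 bp of each other, and in FHT-1015 within 111 bp. MITF went from 97.6 to 47.0 times the library mean, TFAP2A from 43.3 to 12.4, SOX10 from 40.9 to 9.66 and SMARCA4 from 24.6 to 13 times. The 4 ratios were 0.481, 0.287, 0.236 and 0.528, and none of their intervals included 1. The MITF interval, 0.348 to 0.659, included the list's median of 0.601. Those of TFAP2A (0.165 to 0.477), SOX10 (0.138 to 0.386) and SMARCA4 (0.306 to 0.886) lay below their medians of 0.707, 0.510 and 0.958. These 2 elements held both SOX10 peaks of the TYR window in FHT-1015.

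H3K27ac formed 1 peak of 9715 bp over both elements and the first part of the gene in DMSO, with a summit of 70.9 times the mean. In FHT-1015 this domain was split into a peak of 3763 bp at 51.9 times and a peak of 5375 bp at 22.9 times. The ratio of the highest summits was 0.732 (0.561 to 0.954), whereas the median over retained H3K27ac peaks of that strength was 1.2.

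SOX10 was lost from its highest TYR element. This element, chr11:89168275-89169187, lies between genes, with its SOX10 summit 9.27 kb before the TYR start. SOX10 stood at 74.6 times the mean there in DMSO (144 reads, top 1.53% of its list), and had no peak in FHT-1015. Of SOX10 peaks in the top 5% of the DMSO list, 44.8% were lost. MITF (50.2 times) and TFAP2A (17.9 times) had no peak there in FHT-1015 either. SMARCA4 and H3K27ac kept theirs, SMARCA4 at 26.2 times in DMSO and 14.7 in FHT-1015, and H3K27ac at 47.4 and 31.0 times. The site lost the peaks of 3 transcription factors and kept that of the remodeller's ATPase. Absence from a list is not absence of binding: the weakest 10% of SOX10 peaks in FHT-1015 had a median of 5.06 times the mean.

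Inside TYR, 2 elements kept MITF and lost SOX10. The other 3 elements inside the gene that lost SOX10 had no MITF peak in DMSO, and over the gene body MITF retained 3 of its 10 peaks. At chr11:89181896-89183634, 5.10 kb after the start, MITF went from 97.6 to 23.5 times the mean, a ratio of 0.241 (0.155 to 0.362). SMARCA4 was retained there, and SOX10 (15.5 times in DMSO) and TFAP2A (9.27 times) were lost. At chr11:89234991-89235875, 57.4 kb after the start, MITF went from 67.5 to 22.7 times and H3K27ac from 38.0 to 16.3 times. SOX10 (38.9 times), SMARCA4 (15.7 times) and TFAP2A (9.89 times) were lost from this second element.

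Beyond the 3′ end of TYR, TFAP2A was retained where SOX10 and MITF were lost. At chr11:89309328-89310000, between TYR and NOX4, SOX10 (38.9 times), MITF (20.8 times) and H3K27ac (7.30 times) were lost. TFAP2A stayed there at 42.6 times in DMSO and 11.2 times in FHT-1015, and SMARCA4 at 12.1 and 5.65 times. Within NOX4, which encodes an NADPH oxidase, a TFAP2A peak with no other factor stood at 46.3 and 14.3 times. The ratio of these TFAP2A peaks, 0.262 and 0.308, lay under the list's median of 0.707.

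**Figure D2:**
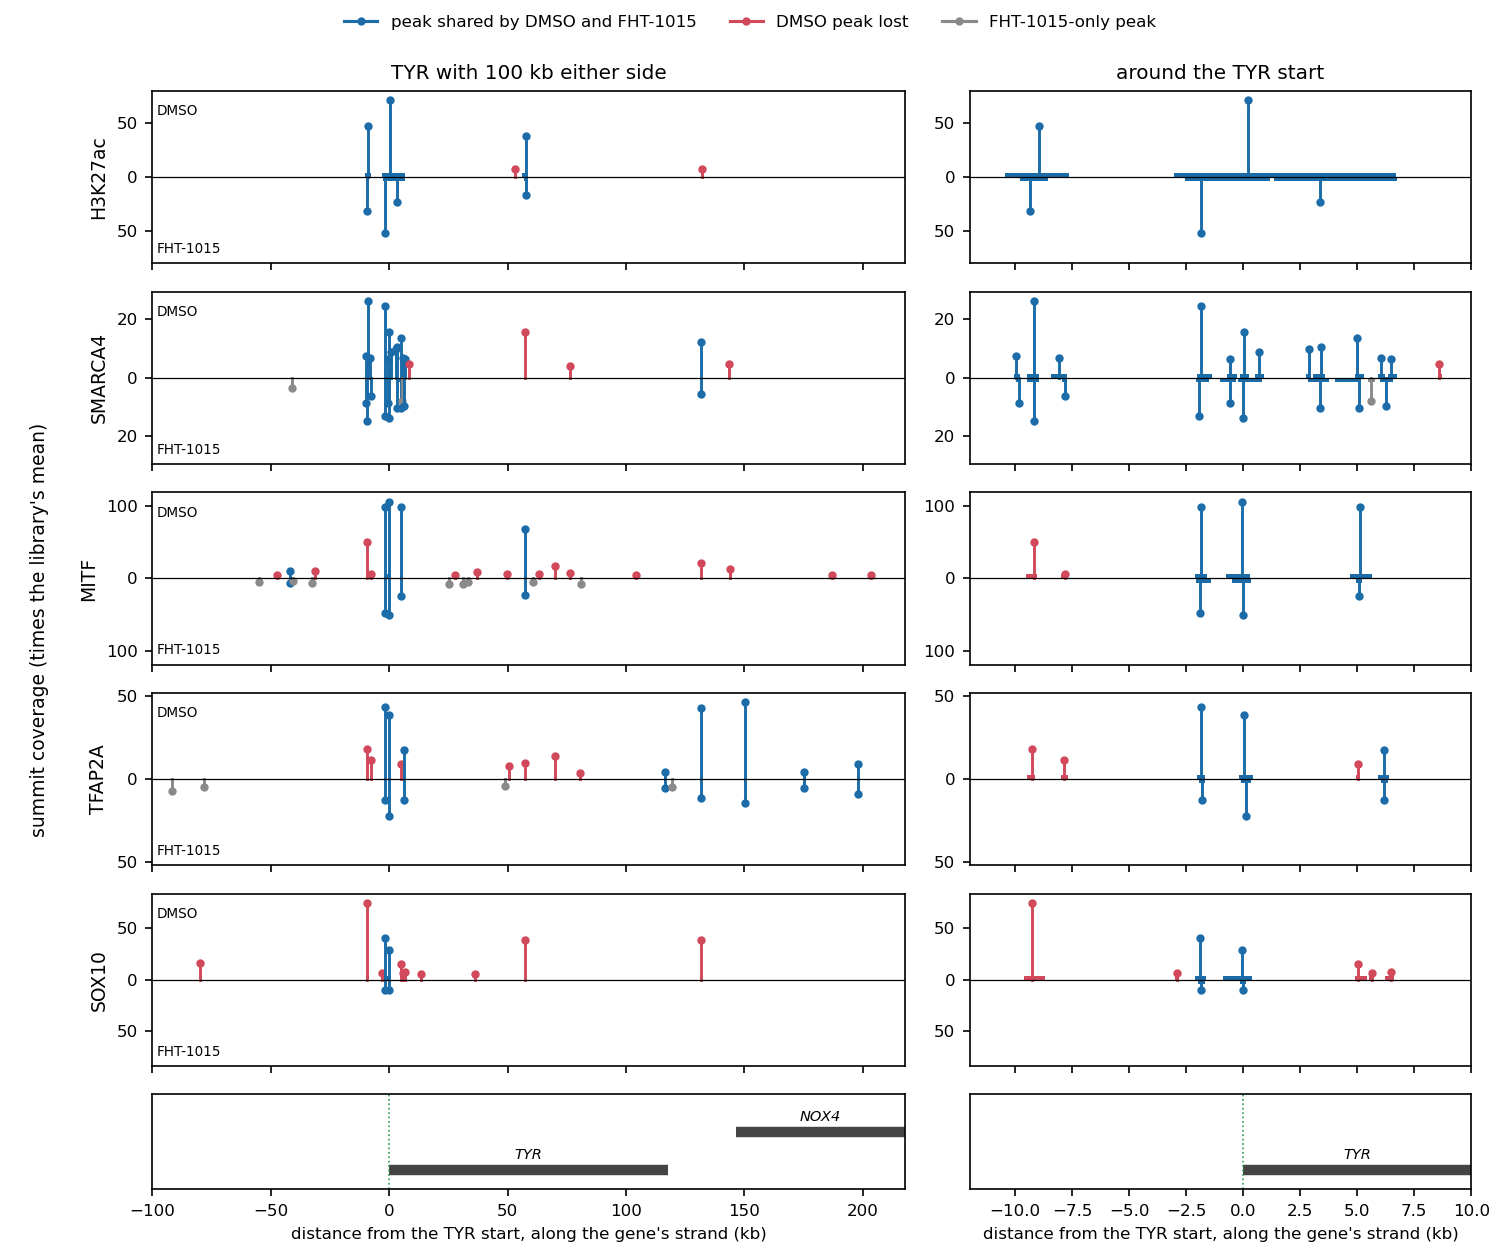
Peaks at TYR by distance from its start in kb along the gene (x axis), the whole window on the left and the start region on the right; stems give summit coverage in multiples of the library mean, DMSO upward and FHT-1015 downward, and thick bars give peak widths. Both SOX10 peaks of FHT-1015 lie within 2 kb of the start, while the DMSO peak 9.27 kb upstream, at 74.6 times the mean, has no partner.

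The inner DCT start lost SOX10 and TFAP2A and kept a low MITF peak. The element was chr13:94479410-94480678, within the annotated DCT gene. MITF went from 85.4 times the mean in DMSO (119 reads) to 12.2 times in FHT-1015 (15 reads), a ratio of 0.142 (0.077 to 0.244). Of the retained MITF peaks of −log10 p of at least 10, 1.16% had a lower ratio. Lost peaks, 38.3% of MITF peaks of that strength, have no ratio and are not in this share. SOX10, at 34.2 times, and TFAP2A, at 41.4 times, had no peak there in FHT-1015. SMARCA4 went from 18.9 to 8.48 times, a ratio of 0.449 (0.229 to 0.841). H3K27ac went from a peak of 927 bp at 20.3 times to one of 222 bp at 8.65 times, and its neighbour of 758 bp on the other side of the start was lost.

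An element inside DCT changed in the same way. It lay 37.0 kb upstream of the inner start, at chr13:94515931-94516985, and in DMSO its 4 summits fell within 52 bp. MITF went from 92.6 to 9.72 times the mean, a ratio of 0.105 (0.053 to 0.190), and 0.258% of retained MITF peaks of that strength had a lower one. SOX10, at 54.4 times in DMSO (105 reads, top 1.42% of its list), was lost, as was TFAP2A at 9.27 times. SMARCA4 went from 17.3 to 6.78 times, a ratio of 0.392 (0.184 to 0.779). A single H3K27ac peak of 2797 bp at 37.0 times became 2 peaks of 296 and 325 bp at 6.11 and 7.12 times. The ratio for H3K27ac was 0.193 (0.100 to 0.345), and 0.486% of the retained H3K27ac peaks of that strength had a lower one. These shares leave out the lost peaks, 38.3% for MITF and 12.4% for H3K27ac. A retained peak must still be called in FHT-1015, so only peaks high in DMSO can have so low a ratio. The weakest 10% of MITF peaks in FHT-1015 had a median of 4.86 times the mean. At both of these DCT elements MITF counted as retained under the 1 bp rule although the upper ends of its intervals were 0.244 and 0.190.

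Other DCT elements were lost by all antibodies. At chr13:94555917-94556530, 76.5 kb upstream, TFAP2A (38.3 times), MITF (30.9 times), SOX10 (19.7 times) and SMARCA4 (8.91 times) all had a DMSO peak and none had one in FHT-1015. At chr13:94383965-94385161, within GPC6, a glypican gene downstream of DCT, SOX10 (46.1 times), TFAP2A (25.3 times), SMARCA4 (14.2 times) and H3K27ac were lost. An MITF peak with no other factor, 2.54 kb upstream of the inner start and at 21.5 times, was lost too. At chr13:94414728-94415895, between DCT and GPC6, TFAP2A (41.4 times) and SOX10 (16.1 times) were lost and SMARCA4 stayed, at 9.96 times in DMSO and 10.2 times in FHT-1015.

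The starts of the neighbouring genes kept SOX10 and TFAP2A peaks, SOX10 at lower height. At the GPR180 start, chr13:94601334-94602982, all 4 factors and H3K27ac were retained. TFAP2A stood at 74.2 and 71.4 times the mean, a ratio of 0.962 (0.739 to 1.25), and MITF at 30.1 and 28.4 times. H3K27ac went from 55.2 to 78.9 times (ratio 1.43, 1.11 to 1.84) and SMARCA4 from 14.2 to 30.5 times. At the start of TGDS, H3K27ac went from 50.02 to 77.8 times and SMARCA4 from 11.5 to 23.7 times. TFAP2A at its retained TGDS peak went from 15.4 to 31.0 times. The DMSO peaks of SMARCA4 at both starts (−log10 p of 8.14 and 6.36) and of TFAP2A at TGDS (5.49) were under 10. No ratio or share over the list was therefore computed for them. SOX10 went from 21.8 to 11.04 times at GPR180, a ratio of 0.507 (0.294 to 0.857), and from 22.8 to 13.8 times at TGDS, a ratio of 0.605 (0.367 to 0.985). The median over retained SOX10 peaks of −log10 p of at least 10 was 0.510. Of these peaks, 49.4% had a lower ratio than GPR180 and 72.4% a lower one than TGDS. For H3K27ac the shares lower were 66.4% and 74.3%, beside a median of 1.2. Of 3 TFAP2A peaks within 1 kb of a boundary of these genes, 2 were retained. These starts held both retained SOX10 peaks of the DCT window. Of the 20 SOX10 peaks of the window that were farther than 1 kb from a boundary of another gene, 0 were retained, and 4 of 27 such TFAP2A peaks were. For MITF it was 2 of 8, for SMARCA4 7 of 17 and for H3K27ac 4 of 12. Over the lists, the shares lost among peaks farther than 1 kb from every protein-coding gene boundary and among those within 1 kb were 86.8% and 57.6% for SOX10, 50.2% and 14.2% for TFAP2A and 68% and 33.9% for MITF. They were 55.2% and 15% for SMARCA4 and 49.5% and 10.5% for H3K27ac. The window counts did not set aside peaks near the boundaries of DCT itself, so the groupings are not defined alike.

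**Figure D3:**
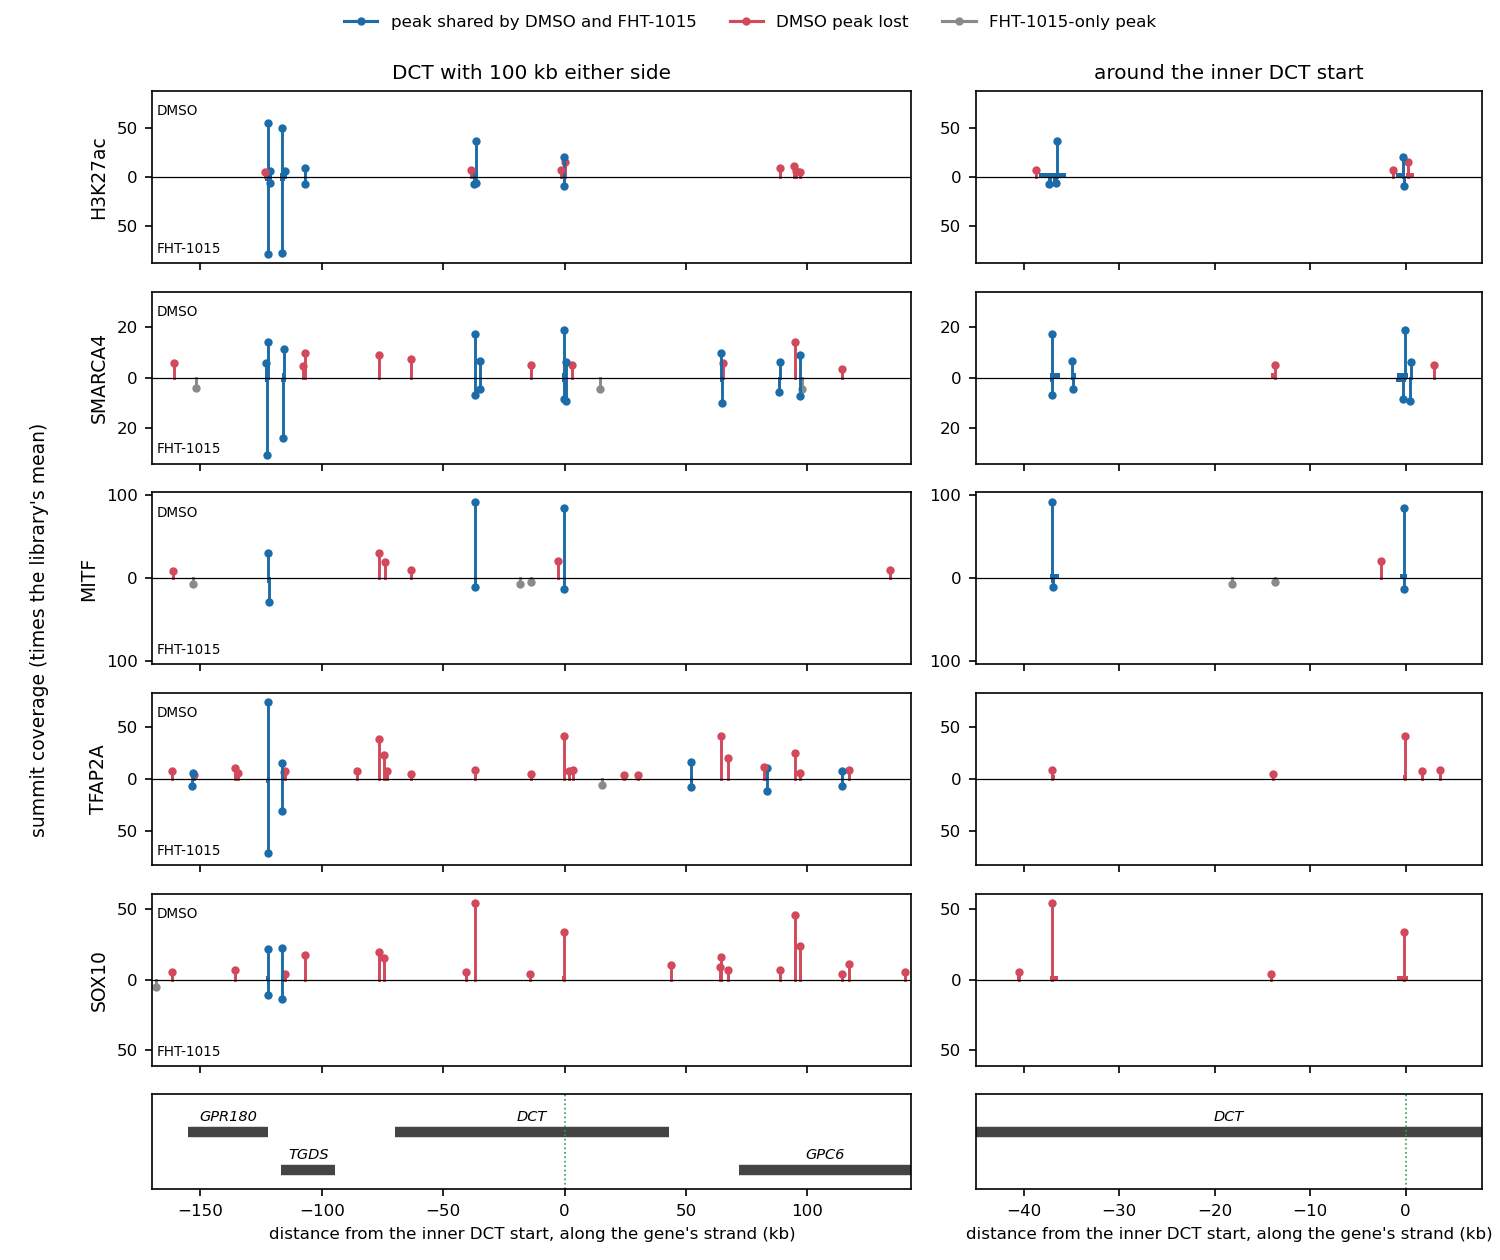
Peaks at DCT by distance from its inner start in kb along the gene (x axis), the whole window on the left and the start with the element 37.0 kb upstream on the right; stems and bars as for TYR, with DMSO upward and FHT-1015 downward. MITF at the inner start drops from 85.4 to 12.2 times the library mean, and both retained SOX10 peaks stand at the starts of TGDS and GPR180.

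The TYR window held 48 elements and the DCT window 49. At TYR, 35 had a DMSO peak of a factor, and 20 of these (57.1%) had no FHT-1015 peak of any antibody. At DCT the count was 28 of 43 (65.1%). Over the genome 48.7% of such elements were lost by all. At least 1 antibody was lost from 26 of 35 elements at TYR and 36 of 43 at DCT, against 76% over the genome. Elements kept by every antibody that held them numbered 9 at TYR and 7 at DCT, and 13 and 6 more appeared in FHT-1015 only. Loss by exactly 1 antibody from an element that kept others was seen once in each window. SOX10 alone left an element 6.46 kb after the TYR start, and H3K27ac alone left one 0.526 kb after the inner DCT start. Shares over the genome were not counted for elements in FHT-1015 only or for loss by exactly 1 antibody.

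Elements lost by all were mostly those of 1 factor, 38 of 48 in the 2 windows, and so they were over the genome, 90636 of 112417. At TYR, 18 of 25 elements with 1 factor were lost by all, and at DCT 20 of 26, beside 62.7% of such elements over the genome. MITF alone made up 11 of the 1-factor elements at TYR and 10 were lost (76.1% over the genome), while TFAP2A alone made up 12 at DCT and 9 were lost (50.5% over the genome). Elements with all 4 factors in DMSO numbered 6 at TYR and 4 at DCT (12.8% of elements over the genome), and 0 and 1 of them were lost by all, beside 10.2% over the genome. SOX10 was lost from 4 of the 6 at TYR and 3 of the 4 at DCT (64.7% over the genome). TFAP2A was lost from 3 and 3 (30.9%), MITF from 2 and 1 (43.5%), and SMARCA4 from 1 and 1 (23.7%). H3K27ac lay over all 6 at TYR in DMSO and 5 in FHT-1015, and over 3 of the 4 at DCT in both. Among elements with a DMSO peak of −log10 p of at least 10, 1 of 10 was lost by all at TYR and 8 of 17 at DCT, where 23.7% were over the genome. The single TYR element was a SOX10 peak without other factors, 79.7 kb upstream and at 16.1 times the mean.

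**Figure D4:**
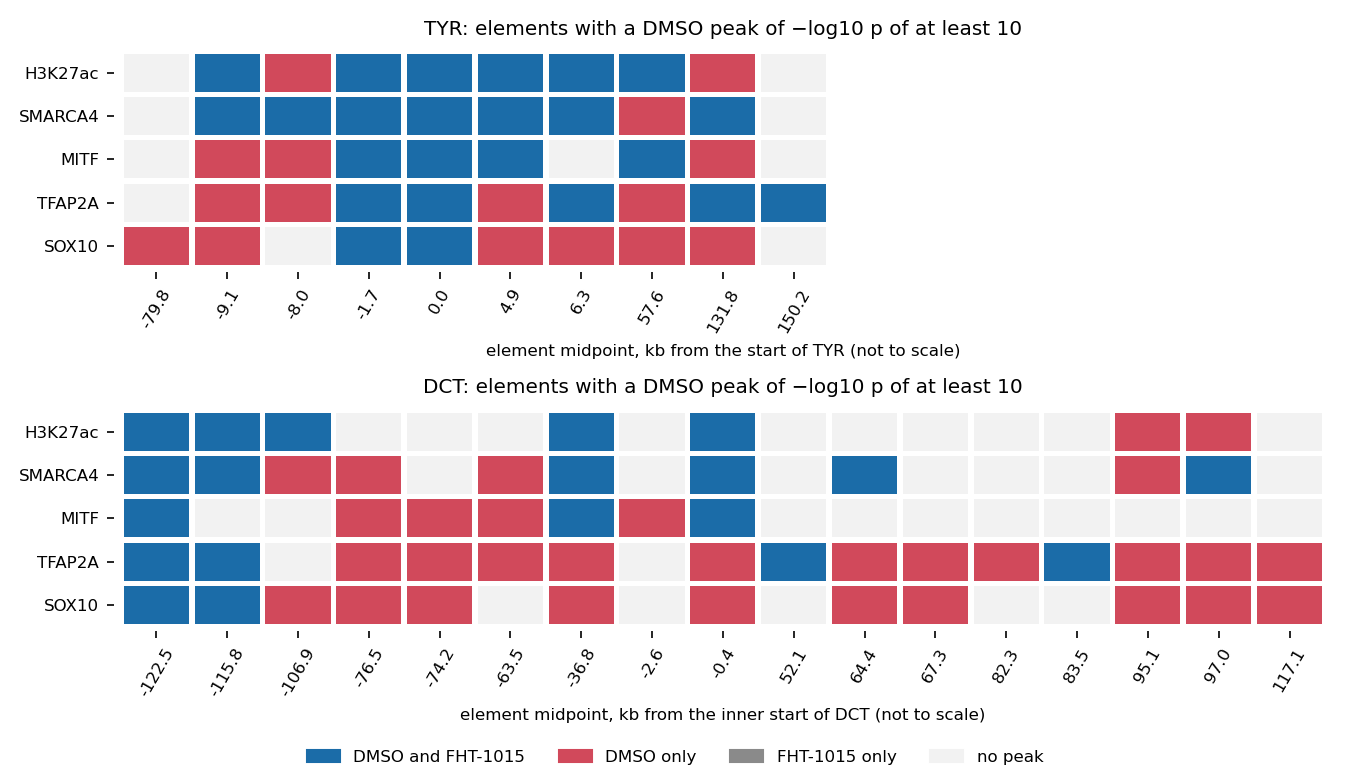
Elements at TYR and DCT with a DMSO peak of −log10 p of at least 10 (columns, labelled by midpoint in kb from the start, not to scale) against the 5 antibodies (rows); blue marks a peak in both conditions, red a peak in DMSO only, light grey no peak. SOX10 is blue in 2 columns at TYR and 2 at DCT, and the latter are the starts of TGDS and GPR180.

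The other genes of melanin synthesis and melanosomes were counted in the same kind of window, in a list of 16 genes that includes TYR and DCT. SOX10 peaks were fewer in FHT-1015 at 15 of 16, where 95.7% of all genes with a SOX10 peak had fewer. The exception was TYRP1, whose enzyme belongs to the same family as tyrosinase and dopachrome tautomerase, with 32 peaks in each condition and 22 retained. The median ratio of SOX10 peak numbers was 0.218 in the list and 0.333 over all genes. TFAP2A peaks were fewer at 10 of 16 (53.8% of all genes). DCT, from 30 to 7, and SLC24A5, a melanosomal cation exchanger, from 15 to 4, had the lowest TFAP2A ratios of the list. H3K27ac peaks were fewer at 14 of 16 (76.1% of all genes), MITF peaks at 8 (48%) and SMARCA4 peaks at 6 (48.7%).

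The genes most like TYR in log2(peak number + 1) over the 10 libraries were ATP6V1C1, MAEL and SMAD9, at Euclidean distances of 0.683, 0.746 and 0.781 among 20025 genes. Those most like DCT were ITGB5, LGI1 and PDLIM1, at 0.952, 1.00 and 1.01. ITGB5 had 23 TFAP2A peaks with DMSO and 10 with FHT-1015, as well as 18 and 3 SOX10 peaks. DCT had 30 and 7, and 22 and 3. These genes were picked on the same counts, so their likeness follows from the choice and is not a result.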

How the data were processed

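ChIP-seq peak lists of 10 immunoprecipitated libraries from 92-1 cells were used, 14 lists in all (10 narrow, and 4 broad for H3K27ac and SMARCA4). No peak list of the DMSO input was used here. The submitters' processing notes name BWA, SAMtools, Picard, MACS2 and hg38, without versions or settings; the control used was not given in the sources used here. The deposited columns were a score (not used), a fold enrichment (a ratio over the caller's background), −log10 p, −log10 q and the summit offset. Each list came from 1 library.

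The members and gene lists were chosen with earlier results of these data known. Genes were named by rule: TYR, DCT, every annotated gene in their windows, the 16-gene melanin list and the 3 most alike genes. Retained peaks shared at least 1 bp. Elements were merged over peaks of SMARCA4, MITF, TFAP2A and SOX10. Summit reads x came from fold = (x + 1)/(λ + 1) and p as a Poisson tail, a form inferred from the values. They were whole within 0.002 for at least 99.98% of peaks in 9 lists. The SOX10 FHT-1015 list needed a scale of 0.890, after which 97.3% of peaks matched within 0.0002 in −log10 p. Median summit reads were 8 to 26 per list. Mean coverage was the lowest λ. Height ratios, added after the data were seen, took the highest overlapping FHT-1015 summit, with exact binomial 95% intervals for counting error only. Recovery and overlap were tested on simulated data. Exons and introns were not analysed here. Alternatives covered overlap, thresholds, list length, broad lists, windows and merging. Python 3.11.15, numpy 2.4.6, pandas 2.3.3, scipy 1.17.1 and matplotlib 3.10.9 were used.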

Additional observations from a re-analysis of the deposited data

How the results depend on the processing

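Each alternative changed 1 choice, and its effect was read against the 95% Wilson interval (shares) or 1.5 times the count. Of the shares retained, 75 stayed within that range and 19 moved. With both lists held to −log10 p of 10 or more, the share became 100% for H3K27ac at TYR, 20.0% for SMARCA4 at TYR, 0% for SMARCA4 at DCT, 66.7% for MITF at TYR, and 0% for SOX10 at TYR and at DCT. With 5 or more, SMARCA4 at TYR became 50%. DMSO peaks of at least 10 against the whole FHT-1015 list, an alternative added for the shares after seeing the data, gave 100% for H3K27ac at TYR, 80% for H3K27ac at DCT, 100% for SMARCA4 at DCT, 66.7% for MITF at TYR and 83.3% for TFAP2A at TYR. Where 50% of a DMSO peak had to be covered, H3K27ac at TYR became 20.0% and MITF at DCT 11.1%, and with summits within 200 bp H3K27ac at TYR became 20.0%. In the DCT gene with 10 kb either side TFAP2A became 8.33% and SOX10 0%, and in the gene body alone both became 0%. Broad lists, which cover H3K27ac and SMARCA4, moved none of their 4 shares, and q under 0.05 and lists of equal number moved none of the 10 for the 5 antibodies.

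Of the peak numbers, 57 moved, as fewer peaks passed or fitted. At −log10 p of at least 10, DMSO and FHT-1015 numbers that moved were 3 for H3K27ac DMSO, SMARCA4 5 and 1, MITF 6 and 4, TFAP2A 6 and 4 and SOX10 7 and 0 at TYR. At DCT they were H3K27ac 5 and 2, SMARCA4 2 and 2, 1 for MITF FHT-1015, TFAP2A 10 and 3 and SOX10 10 and 0. At 5 or more they were SMARCA4 8 and 7 and MITF 12 and 5 at TYR, and SMARCA4 9 and 5, 3 for H3K27ac FHT-1015 and 1 for SOX10 FHT-1015 at DCT. At q under 0.05 they were 6 for MITF FHT-1015 at TYR, and 4 for H3K27ac and 1 for SOX10 FHT-1015 at DCT. With 10 kb either side they were 13 for MITF DMSO and 6 for TFAP2A FHT-1015 at TYR, and at DCT H3K27ac 5 and 3, SMARCA4 8 and 5, TFAP2A 12 and 2 and SOX10 7 and 0. In the gene body they were 3 for H3K27ac DMSO, SMARCA4 10 and 5, MITF 10 and 8, TFAP2A 8 and 4 and SOX10 7 and 1 at TYR, and H3K27ac 5 and 3, SMARCA4 7 and 5, 4 for MITF DMSO, TFAP2A 8 and 1 and SOX10 4 and 0 at DCT.

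Elements lost by all became 10 at TYR with −log10 p of at least 5, and 1 at TYR and 8 at DCT with DMSO peaks of at least 10. Elements that lost 1 antibody or more became 15, and 6 and 13. Merging within 200 bp or adding H3K27ac moved neither count. No paired analysis was possible because each antibody and condition had 1 library. With a median of 8 to 26 reads at a summit, a lost peak may still hold reads below the caller's limit.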

Other observations

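The neighbouring genes on the TYR side carried few peaks of their own. In the part of NOX4 within the window, 3 TFAP2A peaks were retained, and 2 MITF peaks, each without another factor, were lost. CBX3P7, a pseudogene inside TYR, had no peak over it.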
